A study of Drosophila melanogaster with 3 samples.

Results

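Library 3 was 1 of 3 single-cell RNA libraries made from the peripheral taste and smell organs of Drosophila melanogaster larvae in the third instar. Described here are all of its barcodes in which at least 200 genes were counted, 231 of the 506 such barcodes in the 3 libraries. The rule used the library and the number of genes per barcode and no level of a gene, but the library was singled out with its neuron marker and Orco levels known, so those levels are a description. All 3 libraries carry the same labels for tissue and age, so they were treated as replicates of 1 group. Their titles end in different suffixes that may mark different preparations. Nothing in the sources used here gives a genotype, a strain, the driver of the label or the number of animals. Sense organs carrying a fluorescent label were isolated by hand after elastase treatment, dissociated with collagenase and elastase, and run through DisCo, a microfluidic method that brings single cells and barcoded beads together in droplets and is meant for small samples. The cDNA was amplified for 21 cycles. The label names organs, not a sorted cell class, so support cells, glia and epidermis of the organs could also have entered the libraries.

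The external chemosensory organs of a fly larva hold sensory neurons whose dendrites reach the surface, wrapped by support cells that secrete odorant-binding proteins into the fluid around the dendrites. Olfactory neurons use odorant receptors together with the co-receptor Orco, while taste, humidity and temperature neurons use gustatory and ionotropic receptors, and touch-sensitive neurons use mechanosensory channels such as nompC. Fly sensory neurons mostly release acetylcholine, whereas glutamate is the transmitter of motor neurons and of some central neurons.

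The kept barcodes of library 3 held 345621 counts, 93.6% of the 369432 counts in its table, over 5716 genes. Counts per barcode had a median of 513 and ran from 289 to 118614. The deepest barcode alone held 34.3% of the counts and the 3 deepest held 44.8%. Library 1 gave 61 kept barcodes with 497492 counts, and library 2 gave 214 with 654062. No kept barcode sequence was shared between library 3 and either of the others. Levels are CPM, counts scaled to 1000000 over the summed kept barcodes of a library. A gene at 0 counts could have been present at up to 3 counts, which is 6.03 CPM in library 1, 4.59 in library 2 and 8.68 in library 3. Intervals are exact 95% intervals and cover counting error only. With 1 library on each side of every comparison there was no test and no replicate spread, and differences in these sums could come from fewer cells of a type or from less RNA per cell, which cannot be told apart.

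Neuron markers were counted in most barcodes of library 3, at widely different levels. A list of 16 neuron markers summed to 13775 CPM in library 3 (13387 to 14172), to 6715 in library 2 (6518 to 6917) and to 159 in library 1 (126 to 198), with 15 of the 16 genes counted in library 3. At least 1 count of a neuron marker was present in 221 of the 231 barcodes (95.7%, exact binomial interval 92.2 to 97.9). The interval takes the barcodes as independent, which was not tested. That share does not tell cells from free RNA, since barcodes of library 3 with fewer than 200 genes held neuron markers at 7140 CPM. The neuron markers set library 3 above both other libraries in their sum, but the individual genes did not move together, and each is described with its role.

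The most abundant was nrv3 (FBgn0032946, arm 2L), the β subunit of the sodium pump in neurons. It had 11 counts in library 1, 2030 in library 2 and 2277 in library 3, or 22.1, 3104 and 6588 CPM. Library 3 was thus 298-fold over library 1 (166 to 598) and 2.12-fold over library 2 (2.00 to 2.25), and nrv3 was counted in 184 of its 231 barcodes. Neuronal synaptobrevin, nSyb (FBgn0013342, arm 3L), the vesicle protein that drives transmitter release, stood further apart from library 2. Its counts were 2, 108 and 562 in libraries 1, 2 and 3, or 4.02, 165 and 1626 CPM. The ratio to library 2 was 9.85 (8.0 to 12.2) and the ratio to library 1 was 404 (111 to 3348), the latter resting on 2 counts. The voltage-gated sodium channel gene para (FBgn0285944, arm X) did not share that excess. It had 14, 671 and 395 counts, and its 1143 CPM in library 3 was 1.11 times the level in library 2 (0.981 to 1.26) and 40.6 times that in library 1 (23.9 to 75.0). Its interval against library 2 included no difference.

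The mechanosensory channel gene nompC (FBgn0016920, arm 2L) was counted 4 times in library 1, 0 times in library 2 and 59 times in library 3. Its 171 CPM (130 to 220) was at least 37.2-fold over library 2 and 21.2-fold over library 1 (7.87 to 80.5). The vesicular glutamate transporter VGlut (FBgn0031424, arm 2L) had 1, 21 and 42 counts, or 122 CPM in library 3, 3.78-fold over library 2 (2.19 to 6.73). Most of this signal came from a single barcode. Of the 42 counts 31 (73.8%) lay in 1 barcode with 504 counts in all, the 119th deepest. Its summed neuron markers reached 63492 CPM, the highest of the 203 barcodes outside the 2 sequence groups described further on. That level was mostly VGlut itself, since the barcode had 32 neuron marker counts in all and 0 of nrv3.

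**Figure D1:**
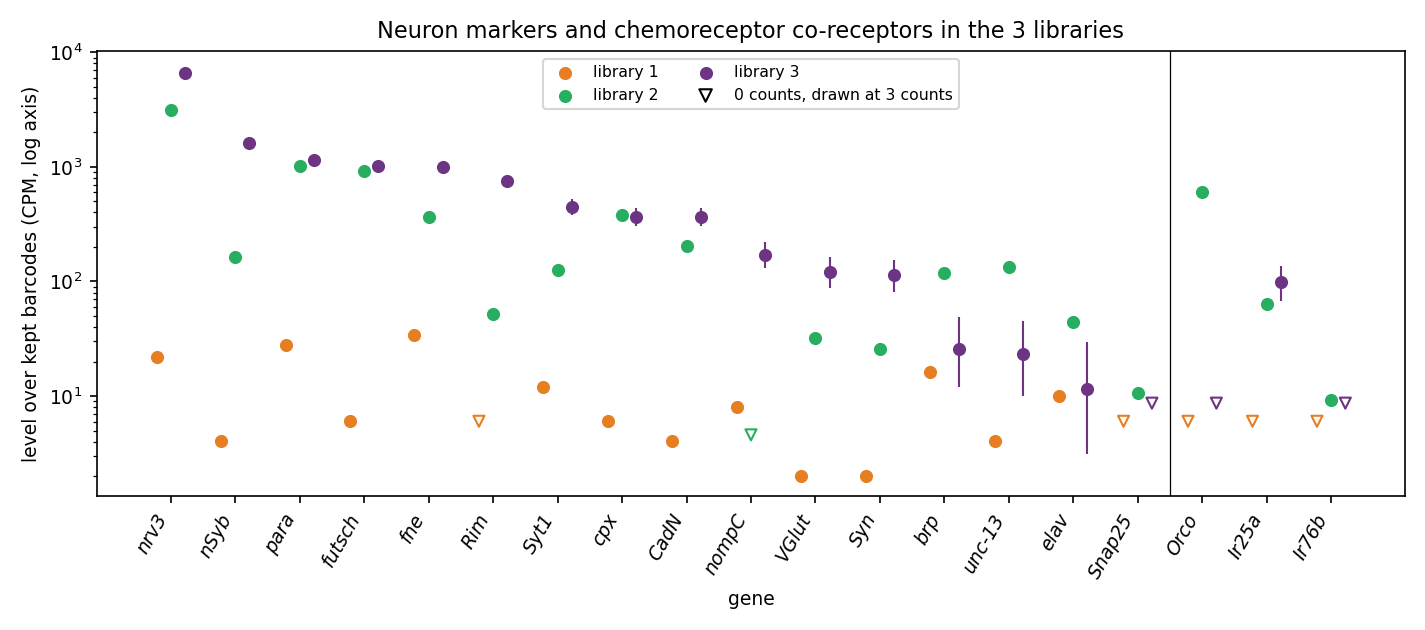
Level of 16 neuron markers and of 3 chemoreceptor co-receptors (x axis) in CPM on a log axis, 1 point per library, with exact Poisson intervals as bars and open triangles at 3 counts where a gene had 0. nSyb, Rim and nompC are higher in library 3 than in library 2, para, futsch and cpx lie close together in both, and Orco is at 0 in libraries 1 and 3.

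Other neuron markers split in both directions against library 2. Rim, a scaffold of the active zone, had 0, 34 and 262 counts in libraries 1, 2 and 3, and its CPM in library 3 was 14.6-fold over library 2 (10.2 to 21.5). Smaller differences, under 4-fold, were recorded for fne, an RNA-binding protein of the ELAV family (17, 238 and 347 counts, 2.76-fold over library 2), and for the calcium sensor Syt1 (6, 83 and 154, 3.51-fold). The microtubule-binding protein futsch (3, 605 and 349 counts) and complexin, cpx (3, 251 and 127), were at 1.09 and 0.958 times library 2. The active-zone genes brp and unc-13, unlike Rim, were lower than in library 2. The scaffold gene brp had 8, 78 and 9 counts, 4.58-fold lower than library 2, and the priming factor unc-13 had 2, 88 and 8, 5.81-fold lower. The pan-neuronal RNA-binding protein elav had 4 counts in library 3, all in the deepest barcode, against 29 in library 2, and Snap25 had 0 against 7. A gene was called higher or lower between libraries at a 4-fold difference in CPM when both sums together held at least 50 counts. A member with few counts on one side met this minimum only through the other side, so counts of calls describe the members that met it and are not read as a direction of a list. No neuron marker had over 17 counts in library 1, so each member tested there met the minimum through library 3 and no count against library 1 is given. Against library 2, 4 of 14 were higher, beside 17.1% of 2467 genes, and 2 were lower, beside 40.4%. Of the 4 higher ones Rim, nompC and Syn, a synaptic vesicle protein gene (1, 17 and 39 counts), had under 50 counts in library 2 and nSyb had more.

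Orco (FBgn0037324, arm 3R), the obligate partner of odorant receptors, was counted 395 times in library 2 (604 CPM), 0 times in library 1 and 0 times in library 3, which allows up to 8.68 CPM. Library 3 was at least 69.6-fold lower than library 2. Orco was also at 0 over all 556 barcodes of library 3 with no minimum of genes, a limit of 8.12 CPM. Every subset of these barcodes then had to be at 0 and adds no support, with limits of up to 24.4 CPM. The ionotropic co-receptor Ir25a (FBgn0031634, arm 2L) did not follow this pattern. It had 0, 42 and 34 counts, and its 98.4 CPM in library 3 was 1.53 times library 2 (0.945 to 2.47), spread over 20 barcodes. The other ionotropic co-receptor named, Ir76b (FBgn0036937, arm 3L), had 0, 6 and 0 counts.

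Single receptor genes in library 3 were few and low. Of the odorant receptor genes 9 of 25 were counted at all, with a summed level of 124 CPM against 1439 in library 2. The whole list had 43 counts in library 3, so each member tested met the count minimum only with counts of library 2. No count of calls is therefore given for this list. Of the gustatory receptors 7 of 24 were counted (107 CPM against 190), 15 of 28 ionotropic receptors (382 against 110) and 10 of 20 pickpocket channels (373 against 349). A pair of ionotropic receptors, Ir51a and Ir93a, was counted in library 3 alone. Ir51a had 0, 0 and 32 counts, 22 of them in the deepest barcode, and Ir93a, a receptor of cool and humidity-sensing neurons, had 0, 0 and 25, 15 of them in the second-deepest barcode. Ir21a, which acts with Ir93a in cool sensing, had 0, 14 and 22 counts, and Gr28b had 0, 2 and 25. The pickpocket subunit ppk26, known from nociceptive neurons of the body wall, had 0, 57 and 109 counts, 3.62-fold over library 2. Of the 3 pickpocket channels tested against library 2, 0 were called higher and 2 lower, beside 17.1% and 40.4% of all genes. Or35a had 3, 0 and 18 counts, and the 11 counts of Or49b all lay in 1 barcode, the 8th deepest.

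Among mechanosensory genes, DCX-EMAP, which encodes a microtubule-associated protein of mechanosensory cilia, had 0, 8 and 285 counts, or 825 CPM in library 3. That was at least 137-fold over library 1 and 67.4-fold over library 2 (33.8 to 158). Both DCX-EMAP and nompC met the minimum of 50 counts through library 3 alone. The summed level of the list was 84.4, 628 and 1091 CPM in libraries 1, 2 and 3. Against library 2, 2 of 5 members were higher, namely those, beside 17.1% of all genes, and 2 were lower, beside 40.4%. The latter were eys, a gene of the extracellular space around sensory cilia, with 1, 103 and 12 counts, and the TRP channel gene pain, with 1, 64 and 0.

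Ion channels of excitability summed to 6148 CPM in library 3, against 205 in library 1 and 3049 in library 2. Against library 2, 4 of 13 were higher, beside 17.1% of all genes, and 1 lower, beside 40.4%. Of the 4, tipE, Ca-alpha1T and NaCP60E had under 50 counts in library 2 and met the minimum only with those of library 3. The gene tipE, whose product raises the current of the Para sodium channel, had 0, 17 and 301 counts (871 CPM), at least 144-fold over library 1 and 33.5-fold over library 2 (20.6 to 58.3), although para itself differed little. The T-type calcium channel Ca-alpha1T had 11, 4 and 137 counts, 64.8-fold over library 2 (24.7 to 241), and the sodium channel homologue NaCP60E had 1, 1 and 71. The calcium-activated potassium channel SK (11, 79 and 242 counts) was 5.80-fold over library 2, and slo, of the same kind (1, 248 and 339), was 2.59-fold over it, short of the 4-fold rule. Irk2, an inwardly rectifying potassium channel, had 0, 292 and 68 counts, 0.441 times library 2. The member called lower was cac, the presynaptic calcium channel, with 10, 69 and 7 counts.

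Genes of synaptic vesicles and release summed to 691, 3717 and 7040 CPM in libraries 1, 2 and 3. Against library 2, 5 of 17 were higher, beside 17.1% of all genes, and 7 lower, beside 40.4%, the latter a share like that of all genes. Rab3, a GTPase of synaptic vesicles, had 0, 12 and 175 counts, 27.6-fold over library 2 (15.4 to 54.4), and dynamin, shi, had 3, 161 and 355, 4.17-fold. In contrast Rbp, which binds Rim at the active zone, had 3, 290 and 25 counts, 6.13-fold lower than library 2. Syntaxin, Syx1A, was counted 132, 327 and 464 times.

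The machinery of peptide secretion summed to 135, 3286 and 8663 CPM. Most of this was IA-2, a membrane protein of dense-core vesicles, with 43, 855 and 2436 counts and 7048 CPM in library 3, 5.39-fold over library 2 (4.99 to 5.84). The prohormone convertase amon had 0, 12 and 81 counts, 12.8-fold over library 2, while Phm, which amidates peptides, had 1, 128 and 47, and 7B2, a partner of the convertase, had 0, 592 and 351. Of the 7 members tested against library 2, 2 were higher, beside 17.1% of all genes, and 2 lower, beside 40.4%. For transmitters, the acetylcholine transporter VAChT (2, 128 and 183 counts) and the synthesis enzyme ChAT, listed as Cha (1, 133 and 157), were 2.71-fold and 2.23-fold over library 2, under the 4-fold rule. Of the 6 transmitter genes tested against library 2, 0 were higher and 2 lower, beside 17.1% and 40.4% of all genes. The lower ones were Vmat, the vesicular monoamine transporter (2, 137 and 6 counts), and DAT, the dopamine transporter (0, 110 and 1).

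Subunits of the sodium pump were unlike one another. The α subunit Atpalpha had 91, 2006 and 1079 counts, and the glial β subunit nrv2 had 105, 1417 and 49, 15.3-fold lower than library 2, beside the higher nrv3. Of the axon and cytoskeleton genes 3 of 19 were higher than in library 2 and 4 lower, shares no larger than the 17.1% and 40.4% of all genes. The kinesin unc-104, which carries synaptic vesicle precursors, had 2, 129 and 333 counts, and CG14509, an older symbol of jus, had 2, 178 and 654. In contrast the ligand jeb had 5, 592 and 85, and Fas1, a cell adhesion protein, had 30, 272 and 22. Among second messenger genes 3 of 13 were higher than in library 2, near the 17.1% of all genes, and 1 lower, beside 40.4%. Ggamma30A, a G protein subunit, had 3, 159 and 589 counts (7.01-fold), and the kinase CaMKII had 59, 28 and 142 (9.60-fold). Glycolysis genes lay between the other libraries, at 4955, 50144 and 27001 CPM, and 2 of 12 were lower than in library 2, beside 40.4% of all genes.

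**Figure D2:**
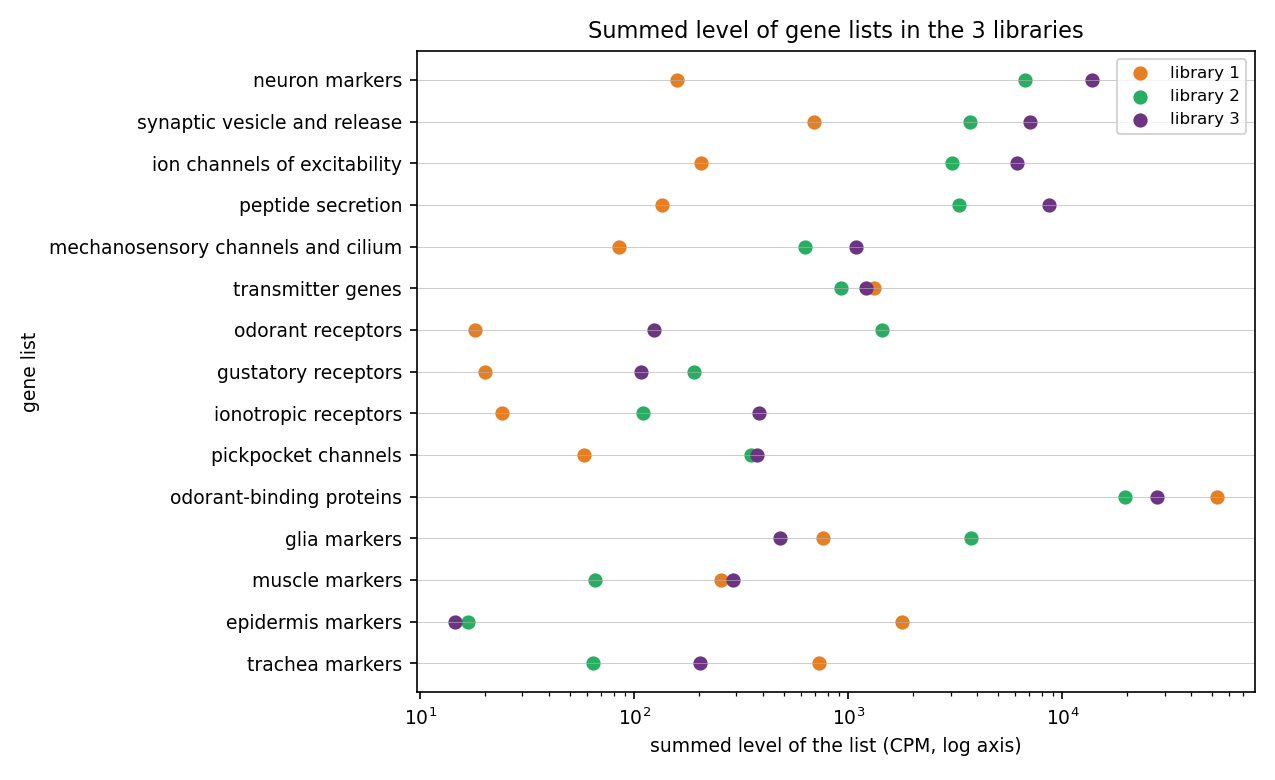
Summed level of each gene list in CPM on a log axis (x axis), 1 point per library, lists on the y axis. Library 3 is the highest for neuron markers (13775 CPM), ion channels (6148) and peptide secretion (8663). It lies between the others for odorant-binding proteins (27568) and is the lowest for glia (477). For epidermis it is at 14.5 (4.70 to 33.8), overlapping library 2 at 16.8 (8.40 to 30.1).

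Markers of other cell types were low but not all absent. The 10 glia markers, of which 6 were counted in library 3, summed to 762, 3747 and 477 CPM, and 3 of 4 members tested against library 2 were lower, beside 40.4% of all genes. Gs2, a glutamine synthetase, had 127, 776 and 109 counts, repo, the defining transcription factor of lateral glia, had 0, 14 and 2, and wrapper, Mdr65 and axo had 0 in library 3. Epidermis markers were at 1781 CPM in library 1 and at 16.8 and 14.5 in libraries 2 and 3, with ple and kkv at 0 in both and grh at 1 and 2 counts. Muscle markers summed to 255, 65.7 and 289 CPM. In library 3 these were mainly 58 counts of tn, a protein of muscle and other tissues, while Mhc had 2 counts and Act57B, Mlc1, Mlc2 and Prm had 0. Tracheal markers were at 726, 64.2 and 203 CPM, 61 of the counts in library 3 from pio and 3 from Gasp. Hemocyte, fat body, salivary gland and sensillum support cell markers stood at 57.9, 5.79, 2.89 and 86.8 CPM. The part of these cells in the results was not tested.

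Odorant-binding proteins, products of support cells, summed to 52505, 19487 and 27568 CPM, and 18 of 24 genes were counted in library 3. Obp28a led with 25569, 1422 and 4329 counts, or 51396, 2174 and 12525 CPM, so that library 3 was 4.10-fold lower than library 1 and 5.76-fold higher than library 2 (5.42 to 6.12). Obp56h (1, 3570 and 1993 counts), Obp49a (14, 3003 and 1455) and Obp56b (21, 3100 and 742) were nearly missing from library 1. Obp57a (1, 0 and 79 counts) and Obp57b (0, 0 and 33) were counted almost only in library 3.

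The 15 most abundant genes of library 3 mixed neuronal, secreted and housekeeping products. First was the uncharacterised CG14456, with 2329, 6433 and 7558 counts, or 21868 CPM in library 3, ahead of CR34335 and Obp28a. The ribosomal protein genes RpL15, RpL41, RpL24 and RpS25, the cyclophilin Cyp1, the glutathione transferase GstD1, the aldolase Ald and the tubulin betaTub56D stood among them. IA-2, nrv3 and Obp56h were also in this set. CG31221, an uncharacterised gene, had 8, 1183 and 3089 counts and 8938 CPM, 4.94-fold over library 2.

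Across all genes 30.3% of the 2078 tested against library 1 were higher in library 3 and 37.7% lower. Of the 1534 genes tested against both other libraries 318 (20.7%) were at least 4-fold over both and 240 (15.6%) at least 4-fold under both. The 15 that led the higher set were taken from 167 that also passed without the 3 deepest barcodes of library 3. They were headed by SoxN (FBgn0029123, arm 2L), a Sox transcription factor of the early nervous system. It had 1 count in library 1, 1 in library 2 and 628 in library 3 (1817 CPM), 904-fold over library 1 (162 to 35760) and 1188-fold over library 2 (213 to 47015), and was counted in 110 barcodes. The set also held gce, a juvenile hormone receptor (1, 2 and 141 counts), FeCH, ferrochelatase (0, 3 and 185), grn, a GATA factor (2, 1 and 107), and pr-set7, a histone methyltransferase (0, 0 and 150). Others were Alr (0, 1 and 141), ssp3 (1, 1 and 141), e(y)3 (1, 1 and 108) and DCX-EMAP, with the uncharacterised CG14961, CG31918, CG17786, CG4933 and CG10205. Lcp1, a larval cuticle protein, had 0, 9 and 337.

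Among 218 genes of the lower set that passed both settings the lowest were akirin, a nuclear cofactor (352, 242 and 1 counts), Scsalpha of the citric acid cycle (209, 217 and 1), Tapdelta of the translocon (161, 254 and 1), Rpt5 of the proteasome (157, 141 and 1) and Uba2 of SUMO activation (225, 96 and 1). CG34439 (157, 417 and 1), CG4511 (107, 222 and 1), CG34159 (94, 158 and 1) and CG13298 (137, 102 and 1) were alike, and CG18067 had 241, 432 and 0 counts, at least 55.8-fold and 76.1-fold lower. Counts at or near 0 were common in library 3 for genes that both other libraries counted. Of 752 genes with at least 50 counts in each other library, 86 were at 0 in library 3 and 122 (16.2%) were at 0 or 1. The same count from the side of library 2 gave 10 of 505 genes (1.98%), and from the side of library 1 109 of 741 (14.7%). Scaling by the median of ratios in place of the total subtracted -0.19 from the log2 ratios to library 2, which raised them. It subtracted 0.05 from those to library 1. The calls against library 2 became 454 higher and 962 lower.

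Barcodes with at least 500 genes, called deep here, were set beside those with at least 200 but under 500, called shallow. The 37 deep barcodes held 245381 counts (71.0%), with a median of 2170 (1002 to 118614). The 194 shallow barcodes held 100240 (29.0%), with a median of 462 (289 to 1267). All 37 deep and 184 of 194 shallow barcodes had a neuron marker count. Neuron markers were at 16505 CPM in the deep sum and 7093 in the shallow sum, and odorant-binding proteins at 18812 and 49002. The sodium pump gene nrv3 was at 8085 and 2923 CPM, a ratio of 2.77 (2.45 to 3.14), and para at 1459 and 369, a ratio of 3.95 (2.81 to 5.71), whereas nSyb was nearly level at 1728 and 1377, a ratio of 1.26 (1.03 to 1.53). Obp28a stood at 8583 and 22177 CPM and CG14456 at 14740 and 39316. At a 2-fold rule 8 of 10 neuron markers and 8 of 11 ion channels were higher in the deep sum, beside 30.0% of 1105 genes. Irk2 alone of the ion channels was lower, and 6 of 7 odorant-binding proteins were lower, beside 15%. Members with few shallow counts, such as Ca-alpha1D (59 deep and 2 shallow), met the minimum of 50 counts only through the deep sum. Counts of calls are therefore not read as a direction of a list. In summed level over all 231 barcodes, neuron markers were higher in the deep ones and odorant-binding proteins in the shallow ones.

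Other genes showed larger differences between deep and shallow sums. Cyt-c-p, cytochrome c, had 118 counts in the deep sum and 2 in the shallow sum, a ratio of 24.1 (6.53 to 201), and Dgk, a diacylglycerol kinase, had 116 and 3, a ratio of 15.8. The calcium channel Ca-alpha1D was 12.1-fold higher in the deep sum. Lower in the deep sum were wapl, a cohesin release factor (13 and 38 counts, 7.16-fold), and CG1309 (29 and 82, 6.92-fold). Several of the most extreme genes came from 1 barcode each. Of the counts of CG11052 135 of 140, of CR44939 98 of 99, and of CG8677 44 of 50 lay in a single barcode, and 8 of the 1105 genes tested had over 60% of their counts in 1 barcode.

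The barcode sequences of library 3 were not evenly spread, and the deep and shallow classes differed in this. An edit is 1 base changed, inserted or removed between 2 barcodes of 12 bases. The deepest and the third-deepest barcode were 3 edits apart, the deepest and the second-deepest 4, and the second and the third 6. Of the 228 remaining barcodes 17 (7.46%) lay within 3 edits of 1 of those 3, and 25 (11.0%) within 4. Within the same distances of those 3 barcodes lay 2 (0.935%) and 6 (2.80%) of the 214 kept barcodes of library 2 and 0 of the 61 of library 1. Each barcode within 4 edits of 1 of these 3 was assigned to the nearest. The lead group held the deepest and third-deepest barcodes and those nearest to them, 23 barcodes with 197130 counts (57.0%), of which 17 were deep. The second-deepest barcode, although itself 4 edits from the deepest, was kept as the centre of a second group, a split made after values were seen, with 5 barcodes and 25644 counts (7.42%). The other 203 barcodes held 122847 counts (35.5%), and 18 of them were deep. Whether barcodes near in sequence were separate cells or 1 cell under several barcodes was not tested, so a barcode is not counted as a cell in any number given here.

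Barcodes at 3 edits from the lead were mostly near the deepest one in expression, and those at 4 edits were less so. The 12 deep barcodes at 3 edits from the lead had Pearson correlations of 0.748 to 0.915 with the deepest barcode, over 713 genes on the scale of log2 counts per 10000 plus 1. The 18 deep other barcodes had 0.444 to 0.593, and the 3 deep lead barcodes at 4 edits had 0.506 to 0.657, overlapping the others. Depth differed, since the 12 had 2199 to 8275 counts, the 18 had 1002 to 4353 and the 3 had 1158 to 1420. Among the 12, the 8 with at most 5000 counts had 0.748 to 0.849. With the shallow ones included, the lead barcodes went down to 0.487 at 3 edits and 0.484 at 4. The points share 1 library, and the correlations are a description. Neuron markers ran from 17799 to 25254 CPM (median 21453) in the 12 near barcodes and from 4049 to 13997 (median 6684) in the 18 others, and odorant-binding proteins from 1364 to 25408 (median 5077) and from 30938 to 58769 (median 42635). The 7 lead barcodes at 4 edits, 3 of them deep, were lower in neuron markers, at 2685 to 13378 CPM, a range that overlaps that of the others. In the second group, the 3 barcodes at 3 edits (323 to 1029 counts) had 0 neuron marker counts and correlated at 0.686 to 0.758 with the second-deepest barcode and at 0.251 to 0.274 with the deepest.

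**Figure D3:**
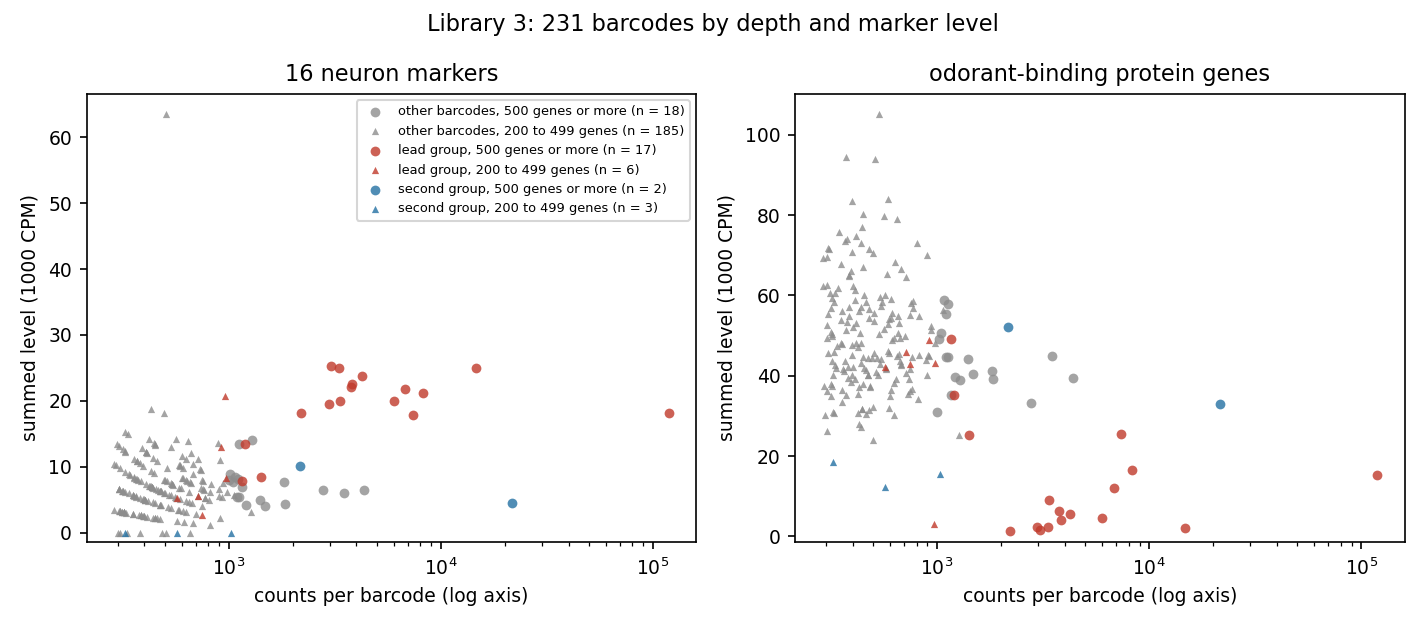
Summed level of 16 neuron markers (left) and of odorant-binding proteins (right) in units of 1000 CPM against counts per barcode on a log axis, 1 point per barcode of library 3, coloured by sequence group, circles for 500 genes or more and triangles for fewer. The 12 deep lead barcodes at 3 edits lie at 17799 to 25254 CPM for neuron markers, while the 3 at 4 edits (7772 to 13378) and the 18 deep other barcodes (4049 to 13997) lie lower and overlap.

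With the lead and second groups left out, few genes differed between deep and shallow barcodes. The 18 deep other barcodes had neuron markers at 6901 CPM and the 185 shallow ones at 7085. Of 482 genes tested 18 were at least 2-fold higher in the deep ones (3.73%) and 16 lower (3.32%), and of the listed genes 0 of 4 neuron markers, 0 of 5 synaptic genes, 0 of 2 ion channels and 0 of 6 odorant-binding proteins were called. Fewer counts also left fewer genes to test. Median of ratios scaling subtracted 0.36 from the log2 ratios of the full comparison. The 331 higher and 166 lower genes of that comparison became 215 and 247, a share of higher calls of 46.5% in place of 66.6%. Within the other barcodes scaling gave 22 and 12, 64.7% higher in place of 52.9%.

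**Figure D4:**
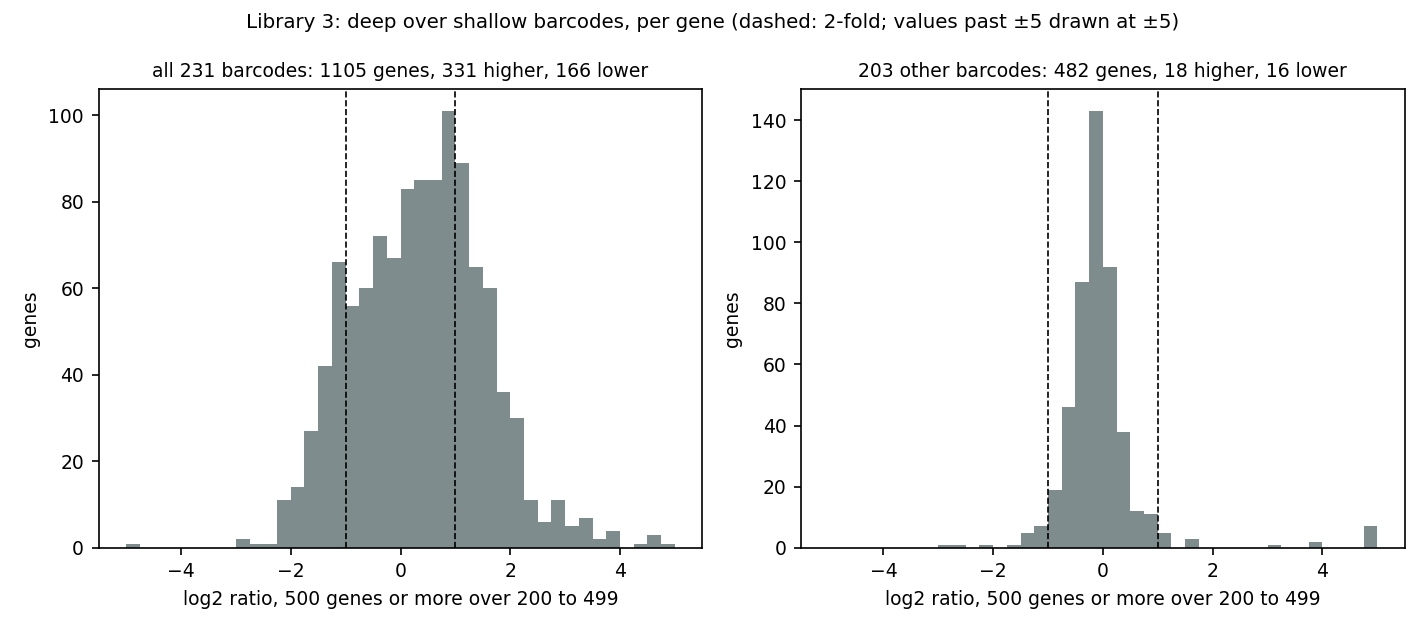
Number of genes (y axis) by log2 ratio of the deep sum over the shallow sum (x axis), for all 231 barcodes (left) and for the 203 other barcodes (right), with dashed lines at 2-fold. Calls fall from 331 higher and 166 lower of 1105 genes to 18 and 16 of 482.

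The summed lead group and the summed other barcodes differed in many genes, although single barcodes of both overlapped. The deepest barcode held 118614 of the 197130 counts of the lead group, so sums and ratios of this group rest largely on 1 barcode. Neuron markers were at 19160 CPM in the lead group, 4640 in the second group and 7041 in the others. Ion channels were at 8548, 2418 and 3077 CPM, peptide secretion at 11977, 3588 and 4404, and odorant-binding proteins at 13793, 33302 and 48475. Between the lead group and the others 9 of 10 neuron markers, 8 of 10 ion channels and 10 of 14 axon and cytoskeleton genes were at least 2-fold higher, beside 36.5% of 1053 genes. All 6 odorant-binding proteins tested were lower, beside 23.1%. Some members, such as nompC (52 lead and 7 other counts) and Ca-alpha1D (56 and 4), met the count minimum only through the lead group. These counts of calls are therefore not read as a direction of a list. The summed levels of the lists do not depend on that minimum. Median of ratios scaling subtracted 0.54 from the log2 ratios of the lead group over the others. The share of higher calls went from 61.2% (384 higher, 243 lower) to 40.6% (218 and 319).

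Single neuronal genes lay in the lead group to different degrees. Of the counts of para 85.1% were there, of nompC 88.1% (52 of 59), of nrv3 80.9% and of nSyb 68.3%, while the group held 57.0% of all counts. VAChT (158 of 183 counts) and Cha (131 of 157) were mostly in the lead group, 5.18-fold and 4.08-fold over the others (3.21 to 8.84 and 2.54 to 6.90). VGlut was not, with 1 count in the lead group and 41 in the others. DCX-EMAP had 235 of 285 counts in the lead group, comt, an ATPase that recycles vesicle fusion proteins, was 12.8-fold higher there, and Ir51a had 29 of 32 counts there. In contrast ppk26 was 3.31-fold lower in the lead group (31 counts against 64 in the others), and Ir25a was split as 12, 2 and 20 over lead, second and other barcodes.

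**Figure D5:**
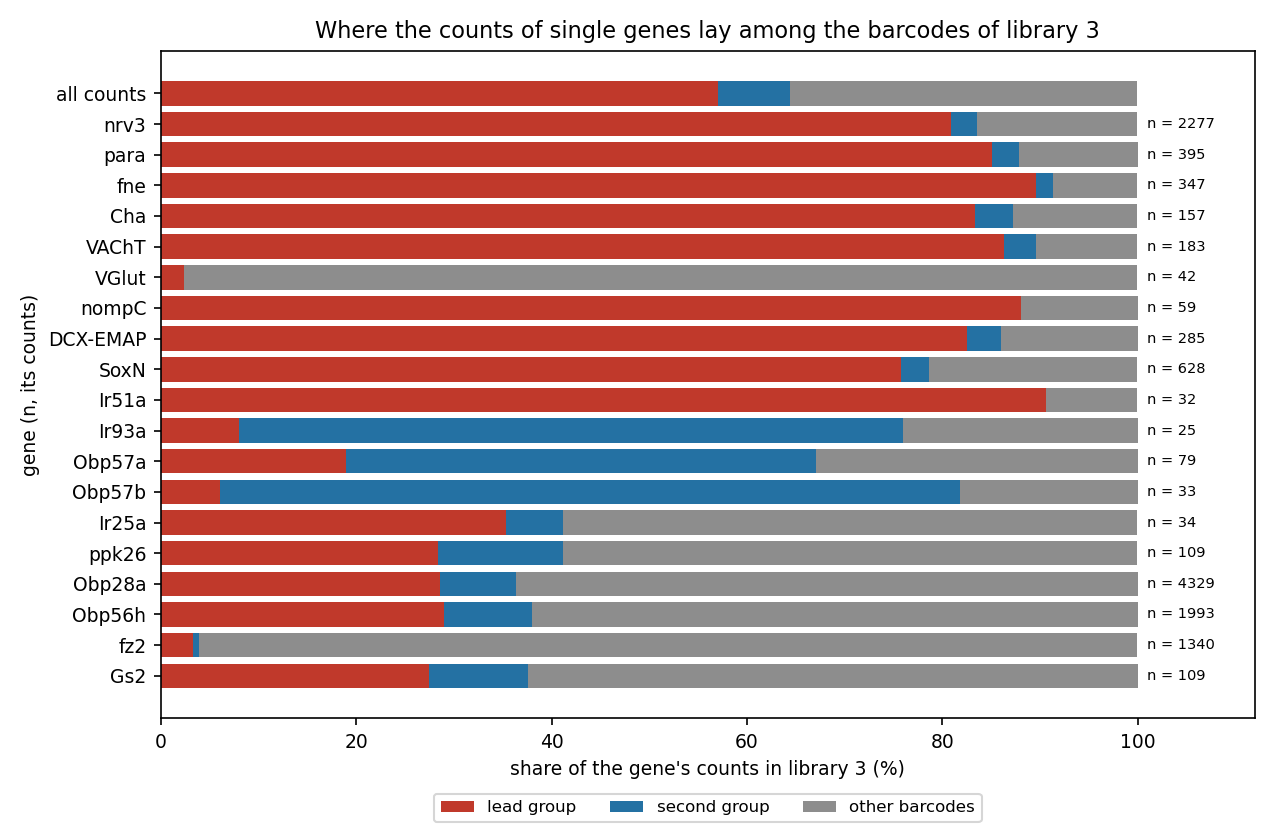
Share of the counts of single genes in library 3 (x axis, %) that lay in the lead group, the second group and the other barcodes, with the share of all counts as the first bar and the number of counts at the right. Bars for nompC (88.1%) and para (85.1%) are mostly lead group, that for VGlut is 97.6% other barcodes, and that for Ir93a is 68.0% second group.

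The genes highest and lowest in each group were looked up after their values were seen. A well-counted gene that was low in the lead group was fz2, a Wnt receptor. It had 44 counts in the lead group, 8 in the second and 1288 in the others, 47.0-fold lower in CPM than the others, and its 1340 counts in the library stood against 6 in library 1 and 270 in library 2. CG5604 was lower still in the lead group, 203-fold under the others. It had 10, 0 and 1265 counts, 651 of them in 1 barcode. P58IPK, a chaperone partner of the endoplasmic reticulum, had 6, 2 and 248, 66.3-fold lower in the lead group than in the others. The 244 counts of wnd, a kinase of axon injury signalling, included 224 in the 8th deepest barcode.

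The second group carried its own genes. Ir93a had 17 of its 25 counts there, 13.6-fold over the others (5.11 to 42.0). Obp57b had 25 of 33, 20.0-fold (7.99 to 59.5), and Obp57a 38 of 79, 7.0-fold (4.14 to 12). The GPI-anchored protein gene atilla had 10 counts in the lead group, 57 in the second and 16 in the others, 17.1-fold (9.67 to 31.8), and CG10205 had 85 of its 149 counts in the second group. Over all genes 95 of 591 (16.1%) were higher in the second group than in the others and 112 (19.0%) lower. Scaling subtracted -0.31 from these log2 ratios, which raised them. It gave 121 higher and 67 lower, a share of higher calls of 64.4% in place of 45.9%. Neuron markers gave 0 higher and 1 lower of 5.

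The 203 other barcodes, with no barcode near the 3 deepest, were also set beside libraries 1 and 2. Libraries 1 and 2 kept their own 3 deepest barcodes, with 46.9% and 42.0% of their counts, so the sums were not trimmed alike. The neuron markers of the 203 barcodes stood at 7041 CPM, beside the 6715 of library 2. Of 1659 genes tested against library 1 15.9% were higher and 47.3% lower. Against library 2, 3 of 12 neuron markers were higher, beside 9.70% of 2155 genes, and 1 lower, beside 38.4%. The excess of nSyb remained, at 7.74 times library 2 (6.02 to 9.98), whereas nrv3 was level at 0.981 (0.876 to 1.10) and para was lower at 0.381 (0.278 to 0.511). Rab3, tipE and DCX-EMAP also stayed over library 2 in these barcodes, at 23.1, 24.4 and 26.6 times, and Rim at 8.77. Cha and VAChT were at 0.801 and 0.790 times library 2 there. Scaling subtracted -0.47 from the log2 ratios to library 1 and -0.49 from those to library 2, which raised both. The share of higher calls against library 2 went from 20.2% (209 higher, 827 lower) to 31.4% (272 and 593).

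Relative to nrv3, several genes kept a similar proportion in the lead group and the others. Per 100 counts of nrv3, IA-2 had 108 in the lead group and 103 in the others, CG31221 had 139 and 122, and DCX-EMAP 12.8 and 10.7. Others did not. The proportion of nSyb was 20.8 (18.6 to 23.3) in the lead group and 42.0 (34.6 to 50.7) in the others, and that of fne was 16.9 (14.9 to 19.0) and 8.02 (5.34 to 11.6). SoxN was at 25.8 (23.3 to 28.6) and 35.8 (29.2 to 43.8). For Cha, at 7.11 (5.91 to 8.49) and 5.35 (3.23 to 8.38), the intervals overlapped.

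Shares of barcodes with a count were compared after thinning each barcode to 300 counts, which left out 4 of the other barcodes. The nrv3 gene was counted in 21 of 23 lead barcodes (91.3%) and in 119 of 199 others (59.8%), against 95.7% and 78.8% before thinning. For para the shares were 43.5% and 8.54% (82.6% and 20.7% before thinning), and for nSyb 47.8% and 34.7%. Obp28a was counted in 60.9% of the lead barcodes and in 100% of the others, and fz2 in 17.4% and 67.3%. No class of cells known to lack these genes was at hand to give a background share. The part of free RNA in the shares was not tested, beside the 7140 CPM of neuron markers in the barcodes with fewer than 200 genes.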

How the data were processed

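The authors deposited, per the file headers, 1 table of whole-number counts per library, with genes by symbol in 1 dimension and 12-base barcodes in the other, and the counts were not normalized. The submitters' processing notes name STAR 2.7.0 and Seurat 3.1.2 without saying what each did. The counting program, genome build, annotation, strand setting, any collapsing of copies to molecules and any correction of barcodes are not given in the sources used here. Values are therefore called counts, not molecules, and overlapping genes cannot be told apart. If copies were not collapsed, errors would be wider than the intervals given. Per the labels' protocols, the amplification ran for 21 cycles. Each library's title ends in its own suffix, which no source explains and which played no part. If the suffixes mark different preparations, differences between libraries cannot be told apart from differences in preparation.

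A barcode was kept when 200 or more genes were counted in it, whatever its mitochondrial share. No doublet caller was run and all kept barcodes stayed in, so barcodes of several cells may be present. Counts were summed over barcodes and scaled to 1000000 (CPM). Depth of the kept barcodes was 497492, 654062 and 345621 counts in libraries 1, 2 and 3. Intervals are exact Poisson for a level, exact binomial for a share and exact conditional binomial for a ratio, at 95% (scipy 1.17.1, numpy 2.4.6, pandas 2.3.3, Python 3.11.15). A sum at 0 counts was set to 3 counts for a ratio. Genes were called at 4-fold between libraries and at 2-fold within library 3, among those with at least 50 counts over both sums. There was no statistical test, since each side of a comparison was 1 library or a subset of 1. The ratio code was tested on simulated counts. Of the 10457 gene symbols 8165 were current in the gene name table, an older symbol was used for 8 listed genes, and FlyBase identifiers and chromosome arms come from the reference tables. No coordinates are given.

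The library, the 5 leading markers, the gene lists and the grouping of barcodes by sequence were chosen with earlier results of these data known, so none of them is independent support. Named genes were the 15 of highest CPM, the 15 highest over and 10 lowest under both other libraries, the 10 highest and 10 lowest in deep barcodes (each also passing without the 3 deepest barcodes), receptor and channel genes with at least 10 counts, and listed genes with the most counts. Genes named for the lead and second groups, or for lying in 1 barcode, were chosen after their values were seen. The alternatives tried were no minimum of genes, leaving out the 3 deepest barcodes, a minimum of 10 counts, median of ratios scaling, equal weight for barcodes, no mitochondrial genes, leaving out a replicate and leaving out barcodes near the deepest.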

Additional observations from a re-analysis of the deposited data

Results flagged for a closer look

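Library 3 also held 325 barcodes with fewer than 200 genes, 96 of them with no counts, which entered none of the comparisons. Together they had 23811 counts, and 170 of these were from neuron markers, 82 of them nrv3 and 28 nSyb. That is 7140 CPM (6107 to 8297), above the 126 CPM that 3 counts would give, and beside 7041 CPM in the 203 kept barcodes outside the lead and second groups. Whether these barcodes held cells or free RNA was not tested.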

How the results depend on the processing

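Of 64 alternative values 32 stayed near the reported one and 32 moved. The margin was not the same for all. A count of genes could differ within a fixed fold, while the neuron marker level had to stay inside its narrower counting interval. The balance of higher and lower genes turned in several settings, given with their counts below. It turned against library 1 without the 3 deepest barcodes, and in deep barcodes under median of ratios scaling. Against both other libraries it turned when either replicate was left out. It also turned there when the 3 deepest barcodes of library 3 and those within 4 edits were left out. No paired analysis was possible because the 3 libraries were treated as replicates of 1 group. Without the 3 deepest barcodes of each library, genes higher than library 1 numbered 401 in place of 630 and genes lower 391 in place of 784. Against library 2 these were 270 in place of 423 and 506 in place of 996, against both 198 in place of 318 and 97 in place of 240, and higher in deep barcodes 147 in place of 331, with fewer counts left to test. A minimum of 10 counts admitted more genes, and gave 1118 and 1310 against library 1, 689 higher and 2060 lower against library 2, and 553 and 457 in deep barcodes. Leaving out a replicate turned the comparison with both others into one with a single library, which gave 423 to 630 genes higher and 784 to 996 lower. Median of ratios scaling gave 215 genes higher and 247 lower in deep barcodes in place of 331 and 166, and equal weight for each barcode gave 220 higher and 95 lower; the cause was not tested.

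Leaving out the 3 deepest barcodes of library 3 and those within 4 edits was an alternative added after seeing the data for the counts of genes. It gave 263 genes higher than library 1, 209 higher than library 2 and 123 higher than both. Against both it gave 207 lower, beside 240 as reported. In deep barcodes it gave 18 higher and 16 lower, of which 9 and 7 were among those reported, and a limit of 3 edits, also added after seeing the data, gave 18 and 14. The neuron marker level of 13775 CPM became 13348 with no minimum of genes, 16505 in barcodes of at least 500 genes, 11230 without the 3 deepest, 7041 without those within 4 edits, 7189 without those within 3 edits and 8001 with equal weights. Orco was at 0 counts with no minimum of genes, so its 0 under the other settings, all subsets of those barcodes, was fixed in advance. Depth limits the 200 to 500 gene barcodes most, where a median of 462 counts leaves most genes unseen in any 1 barcode.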
